A study of Rattus norvegicus with 16 samples.

Results

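Protein kinases attach phosphate groups to other proteins and protein phosphatases remove them, and together they relay nerve activity, calcium, energy state and growth signals inside a muscle fibre. The genes described here are those whose symbol in the array platform's annotation begins like a known kinase or phosphatase family (Map-k, Mapk, Prk, Camk, Cdk, Rps6k, Akt, Csnk, Gsk3, Jak, Stk, Eef2k, Ppp, Ptpn, Ptpr and Dusp). The symbol rule, which used no measured value, found 29 genes among 1096 named genes, each with 1 probe. Of these, 10 were kinases or kinase subunits and 19 were phosphatases or phosphatase subunits. The Akt, Gsk3 and Jak families and the calcineurin chains are not analysed here.

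The muscle was the EDL, the extensor digitorum longus of the hind limb, made up mostly of fast fibres, from Brown-Norway rats aged 6 months. The control group comprised 8 arrays of innervated EDL and the denervated group 8 arrays of EDL without its nerve for 2 months. Rats were numbered 1 to 8 in each group, and the labels name neither the way of denervation nor the sex of the rats. Whether rat 1 of both groups is a single animal is not given, so p-values measure the spread between these arrays. Values are the authors' normalised membrane signals on a scale that looks logarithmic. Its base is not given, so differences are called log units and no fold is printed. On each array the lowest value was shared by 22 to 206 probes. A gene at that value has only an upper bound there, and "lowest value" below always means this. The mean over the 1176 tested probes was 8.19 to 8.31 on 15 arrays and 6.63 on that of control rat 6, which stands apart. Of 6 measured skeletal muscle markers, 5 were above the lowest value on all arrays, and 1 fell (Mylk2, described last); after quantile normalisation 3 were lower, with Cacna1s at -0.79 (adjusted p = 0.00230) and Pgam2 at -0.93 (adjusted p = 0.0172). Of other cell markers, 1 of 10 for Schwann cells and nerve rose (0 after centring or quantile normalisation), 1 of 2 for adipocytes and 0 of 2 for vessels (in limma, 0 also at an unadjusted p under 0.05, and 0 by exact permutation); leukocyte and matrix markers are given beside the tyrosine phosphatases. The number of arrays limits the precision.

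In denervated muscle 2 of the 29 genes rose and 1 fell. Camkk2, a kinase that activates AMP-activated protein kinase (AMPK) and calmodulin-dependent kinases when calcium rises, differed by 1.54 log units (SE 0.46, limma adjusted p = 0.0300). Dusp6, a cytoplasmic phosphatase that switches off the MAP kinase ERK, differed by 1.47 (SE 0.46, adjusted p = 0.0402). Ppp5c, a serine/threonine phosphatase that works with the chaperone Hsp90, fell by 2.15 (SE 0.63, adjusted p = 0.0285). That value rests on 6 of 8 denervated arrays at their lowest value. With a common lowest value the difference of Ppp5c was -0.36 (adjusted p = 0.171). Every denervated value of Ppp5c lies below that common value, so the fall is capped there and its size cannot be read from it. The other 26 did not pass, and in none of the 29 were the groups free of overlap. Over all tested probes 6.29% passed (5.44% higher and 0.85% lower), and in 1.28% the groups did not overlap. The members' share was 10.3%, which for 29 genes is near that background. In whole muscle, fewer cells of a type and less RNA per cell cannot be told apart.

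Those 3 calls depended on the scaling and on the treatment of low values, and centring moved the median difference of all probes from 0.22 to 0.0074. With each array centred on its median, 4.25% of probes passed and only the fall of Ppp5c remained among the members (adjusted p = 0.0312), while Camkk2 (1.33, adjusted p = 0.0793) and Dusp6 (1.26, adjusted p = 0.119) did not pass. After quantile normalisation 5.27% of probes passed and none of the 29 did, with Camkk2 at 1.29 (adjusted p = 0.141), Dusp6 at 1.20 (adjusted p = 0.142) and Ppp5c at -1.42 (adjusted p = 0.0563). In limma as first fitted 6 of the 29 passed at an unadjusted p under 0.05 (20.7%, against 17.9% of all probes), and by an exact permutation test with adjustment 1 did (3.45%, against 5.7%), Ppp5c (adjusted p = 0.0424). With the set of rats (1 to 4 or 5 to 8) as a block, all 3 passed also after centring (adjusted p = 0.0322 for Camkk2, 0.0122 for Dusp6 and 0.0119 for Ppp5c). That block was added after the data were seen, so it is no separate support for these calls.

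**Figure D1:**
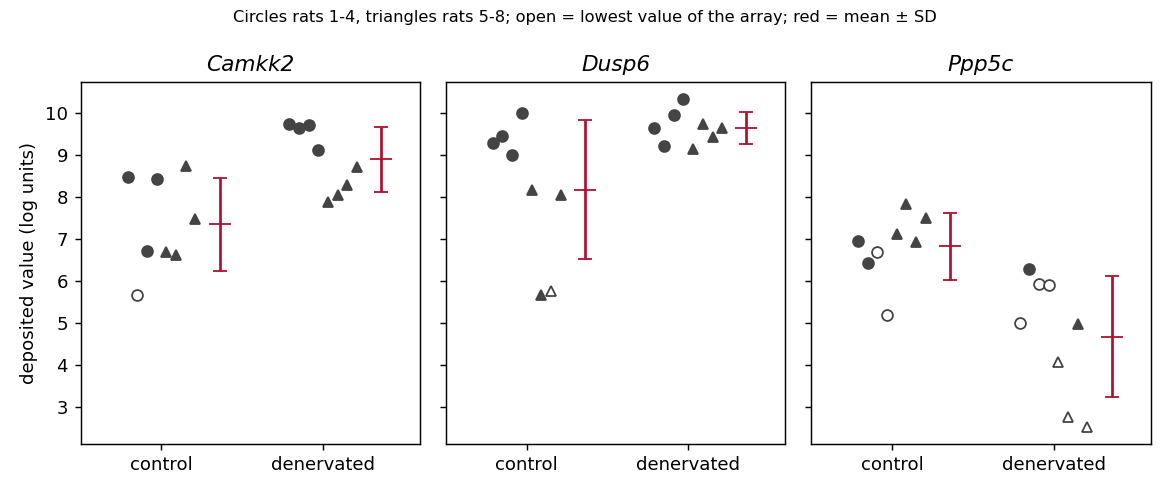
Deposited values in log units (vertical axis) of Camkk2, Dusp6 and Ppp5c on the 8 control and 8 denervated arrays; circles are rats 1 to 4, triangles rats 5 to 8, open symbols the lowest value of an array, and the red bar is the mean ± SD. Groups overlap in all 3 genes, and 6 of 8 denervated values of Ppp5c are at the lowest value of their array.

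Dusp6 and Ppp5c each have an entry in the RefSeq promoter table (build GRCr8), as do 23 of the 29 genes. Their 250 bases before the start site are shown as the regulatory sequence of the called phosphatases, with capitals marking each E-box (CANNTG, read the same on both strands), the motif bound by myogenic factors such as myogenin. Dusp1, a phosphatase of the same family that did not pass, is shown beside them, with capitals marking its cyclic AMP response element (TGACGTCA, searched on both strands, where it reads the same). The windows are chr7:35979354-35979603 on the plus strand for Dusp6, chr1:86842506-86842755 on the minus strand for Ppp5c and chr10:17184603-17184852 on the plus strand for Dusp1.
Dusp6: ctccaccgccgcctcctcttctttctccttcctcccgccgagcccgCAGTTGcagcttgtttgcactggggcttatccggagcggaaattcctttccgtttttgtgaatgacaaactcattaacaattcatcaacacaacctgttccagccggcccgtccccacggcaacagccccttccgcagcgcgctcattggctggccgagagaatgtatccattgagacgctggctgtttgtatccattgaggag
Ppp5c: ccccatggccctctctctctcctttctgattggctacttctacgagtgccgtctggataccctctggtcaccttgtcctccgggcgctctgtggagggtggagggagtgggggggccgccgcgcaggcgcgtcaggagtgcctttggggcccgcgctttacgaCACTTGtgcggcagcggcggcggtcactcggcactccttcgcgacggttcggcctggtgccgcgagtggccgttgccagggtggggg
Dusp1: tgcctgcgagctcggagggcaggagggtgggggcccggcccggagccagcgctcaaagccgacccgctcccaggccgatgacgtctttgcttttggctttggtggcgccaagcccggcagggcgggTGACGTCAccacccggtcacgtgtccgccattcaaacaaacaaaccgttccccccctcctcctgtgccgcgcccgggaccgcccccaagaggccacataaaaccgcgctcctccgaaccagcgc

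An E-box was found once in the window of Dusp6, 204 bases before the start, and once in that of Ppp5c, 87 bases before it, so the gene that rose and the gene that fell each held 1. That of Dusp1 also held 1, not in capitals. It was found in 9 of the 23 member windows (39.1%) and in 65.2% of 27457 promoters of the same length, and the windows differed in base composition, with a median GC content of 66.4% for members and 52.0% for all. The cyclic AMP element was found in 1 of 23 member windows, that of Dusp1, and in 1.7% of all. The core letters TGTGGT (or ACCACA on the other strand), bound by RUNX factors, were in none of the 23 and in 14.1% of all. A match is only a description of these letters.

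Kinases of the energy-sensing pathway comprised Camkk2 and 2 subunits of its target AMPK, the scaffold subunit Prkab1 and the nucleotide-binding subunit Prkag1. Camkk2 read 8.48, 5.66, 6.70, 8.43, 6.68, 6.62, 8.74 and 7.47 log units in control rats 1 to 8 and 9.74, 9.64, 9.70, 9.11, 7.88, 8.05, 8.28 and 8.71 in denervated rats 1 to 8. Control rat 2 was at the lowest value of its array. The 4 highest values were those of denervated rats 1 to 4, all above every control, and the other 4 denervated values lay within the control range. The group means were 7.35 ± 1.11 and 8.89 ± 0.77 (SD, n = 8 each), and 5 controls lay below the lowest denervated array. Within rats 1 to 4 the difference of Camkk2 was 2.23 (adjusted p = 0.0173), and within rats 5 to 8 it was 0.85 (adjusted p = 0.480). For Camkk2 the limma test between those sets gave an unadjusted p of 0.112 and an adjusted p of 0.461, so it did not pass. Its call was lost without control rat 2, 3, 5 or 6 (adjusted p = 0.0563 to 0.0623) and without denervated rat 1, 2, 3 or 4 (adjusted p = 0.0615 to 0.0866).

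Prkag1 read 10.002, 9.84, 9.36, 9.96, 6.62, 7.59, 7.14 and 6.20 in control rats 1 to 8, and 9.99, 9.83, 9.28, 9.70, 8.84, 8.63, 8.15 and 8.42 in denervated rats 1 to 8. Control rat 8 was at the lowest value of its array. Control rats 1 to 4 stood apart from control rats 5 to 8, and denervated rats 5 to 8 lay above all of the latter. Prkag1 differed by 0.77 overall (SE 0.47, adjusted p = 0.390), with -0.09 in rats 1 to 4 and 1.62 (adjusted p = 0.142) in rats 5 to 8. The difference between those 2 sets had an unadjusted p of 0.00878 and an adjusted p of 0.195, so it did not pass. Prkab1 lay between 7.53 and 10.16 in controls and between 8.49 and 9.74 after denervation. It differed by 0.06 (adjusted p = 0.954), and its sign turned after centring (-0.14), after quantile normalisation (-0.25) and without control rat 3 (-0.013), control rat 6 (-0.16) or denervated rat 4 (-0.015).

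Of the other kinases none passed. Csnk1g2, a membrane-bound casein kinase, read 7.64, 7.78, 9.13, 8.86, 8.39, 5.85, 8.83 and 9.03 in controls and 9.98, 9.90, 10.09, 9.19, 9.15, 8.28, 8.51 and 8.28 in denervated muscle. Denervated rats 1 to 5 lay above every control, while denervated rats 6 to 8 lay inside the control range. The difference of Csnk1g2 was 0.98 (SE 0.42, adjusted p = 0.180). Cdk5r1 encodes p35, the activator of the kinase Cdk5, which acts at synapses and in muscle. Cdk5r1 was 8.19 ± 0.81 in controls and 9.07 ± 0.40 in denervated muscle (SD, n = 8 each), a difference of 0.87 (SE 0.39, adjusted p = 0.198), and 5 controls lay below the lowest denervated value.

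Rps6kb1, the S6 kinase that acts below mTOR in protein synthesis, ranged from 5.88 to 9.22 in controls (median 7.96) and from 6.98 to 9.12 after denervation (median 8.77). The 5.88 of control rat 5 was the lowest value of its array. Denervated values of Rps6kb1 lay within the control range, and its difference was -0.21 within rats 1 to 4 but 1.55 within rats 5 to 8 (unadjusted p = 0.0463 and adjusted p = 0.354 for the difference between sets). Prkg2, a cyclic GMP-dependent kinase, differed by 0.19 (adjusted p = 0.899), with the sign turned after centring (-0.01), after quantile normalisation (-0.10) and without control rat 6 (-0.05). Stk10, a kinase of cytoskeletal linker proteins, was the only kinase gene with a negative difference, -0.29 (adjusted p = 0.823).

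At the head of the MAP kinase cascades, Map3k1 activates the JNK and ERK branches and Map3k12 (DLK) is best known for signalling injury in axons. Map3k1 was 8.47 ± 0.64 in controls and 8.49 ± 0.45 in denervated muscle (SD, n = 8 each), the smallest difference of the 29 at 0.01 (SE 0.39, adjusted p = 0.993). Its sign turned after centring (-0.20), after quantile normalisation (-0.32) and without any of 6 single arrays, namely control rat 3 (-0.04), 6 (-0.16) or 8 (-0.06) and denervated rat 1 (-0.10), 5 (-0.015) or 6 (-0.025). Map3k12 ranged from 4.81 to 8.77 in controls and from 6.05 to 8.49 in denervated muscle, a difference of 0.50 (SE 0.56, adjusted p = 0.705). For Map3k12 control rat 2 was at the lowest value of its array.

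The dual-specificity phosphatases remove phosphate from both the threonine and the tyrosine of MAP kinases. Dusp6 read 9.29, 9.45, 8.99, 10.003, 8.16, 5.66, 5.74 and 8.03 in control rats 1 to 8 and 9.64, 9.22, 9.95, 10.33, 9.14, 9.73, 9.43 and 9.63 in denervated rats 1 to 8. Denervated values lay close together. Controls of rats 3 and 5 to 8 lay below every denervated array, and those of rats 5 to 8 were the lowest. The means were 8.17 ± 1.65 and 9.64 ± 0.39 (SD, n = 8 each). Within rats 1 to 4 the difference of Dusp6 was 0.35 (adjusted p = 0.810), and within rats 5 to 8 it was 2.58 (adjusted p = 0.00233). The test of that difference between sets gave an unadjusted p of 0.00253 and an adjusted p of 0.171. Of control rats 5 to 8, rat 6 is the low array and rat 7 was at its lowest value for Dusp6. The call was lost without control rat 5, 6, 7 or 8 (adjusted p = 0.0623 to 0.132) and without denervated rat 1, 3, 4, 6 or 8 (adjusted p = 0.0585 to 0.0874).

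The other members of that family lay lower in denervated muscle without passing. Dusp1, a nuclear phosphatase induced by stress, ranged from 8.27 to 9.95 in controls (median 9.30) and reached at most 9.23 after denervation (median 8.86), a difference of -0.37 (SE 0.36, adjusted p = 0.640). The difference of Dusp1 was -0.57 after centring (adjusted p = 0.314) and -0.76 after quantile normalisation (adjusted p = 0.133). Dusp7, which like Dusp6 acts on ERK, differed by -0.19 (SE 0.40, adjusted p = 0.861). Of the 3 family members 1 thus rose, and 2 had negative differences that did not pass.

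Protein phosphatase 1 (PP1) has 3 catalytic genes, Ppp1ca, Ppp1cb and Ppp1cc, whose products dephosphorylate glycogen enzymes and, with Ppp1cb, myosin light chain. Ppp1cb read 10.34, 12.28, 10.73, 11.75, 10.86, 9.70, 10.33 and 10.64 in control rats 1 to 8, and 12.02, 12.03, 11.62, 12.31, 11.64, 12.40, 11.21 and 11.59 in denervated rats 1 to 8. All denervated values lay at or above 11.21, above 6 of the controls, and only control rats 2 and 4 overlapped them. The difference of Ppp1cb was 1.02 (SE 0.40, adjusted p = 0.128). It passed without control rat 2 (1.23, adjusted p = 0.0358), with the 2 sets of rats as a block (adjusted p = 0.0305) and within rats 5 to 8 (1.33, adjusted p = 0.0124) but not within rats 1 to 4 (0.72, adjusted p = 0.576). The limma test between those sets did not pass for Ppp1cb (unadjusted p = 0.311, adjusted p = 0.657). After quantile normalisation the difference of Ppp1cb was -0.04 (adjusted p = 0.959).

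Ppp1ca read 10.77, 7.99, 8.29, 7.12, 8.60, 7.37, 8.69 and 8.04 in controls, and 8.70, 9.56, 9.39, 8.81, 9.29, 8.83, 9.08 and 9.10 after denervation. All 8 denervated values lay above all controls but that of control rat 1, which was the highest of the 16. Its difference was 0.73 (SE 0.40, adjusted p = 0.334), and 1.08 without control rat 1 (adjusted p = 0.0808). Ppp1cc differed by 0.59 (SE 0.43, adjusted p = 0.493). The 3 differences were all positive, also after centring, while after quantile normalisation that of Ppp1cb was not. The 3 genes are close relatives, and signal shared between their probes was not tested.

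Ppp5c, the remaining catalytic gene, read 6.95, 6.42, 6.69, 5.18, 7.12, 7.82, 6.92 and 7.49 in controls and 4.99, 6.27, 5.93, 5.89, 4.08, 2.75, 4.96 and 2.51 in denervated muscle. Control rats 3 and 4 and all denervated rats but 2 and 7 were at the lowest value of their array, so the denervated level is an upper bound on 6 of 8 arrays. The means were 6.82 ± 0.79 and 4.67 ± 1.44 (SD, n = 8 each). The lowest values themselves differed between arrays, from 2.51 to 6.69, and were at most 4.08 in denervated rats 5 to 8 but at least 4.99 in denervated rats 1 to 4; the part of these values in the difference between the sets was not tested. Within rats 1 to 4 Ppp5c stood at -0.54 (adjusted p = 0.790), and within rats 5 to 8 at -3.76 (adjusted p = 0.0116). The limma test between those sets gave an unadjusted p of 0.00560 and an adjusted p of 0.189. With all arrays set to a common lowest value of 6.69, the difference of Ppp5c between the groups was -0.36 (adjusted p = 0.171). All 8 denervated values lie below 6.69 and were replaced by it. That setting thus caps the fall in advance and cannot show its size. The call was also lost without control rat 5, 7 or 8 (adjusted p = 0.0540 to 0.0599) and without denervated rat 6 or 8 (adjusted p = 0.0685 and 0.0722).

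**Figure D2:**
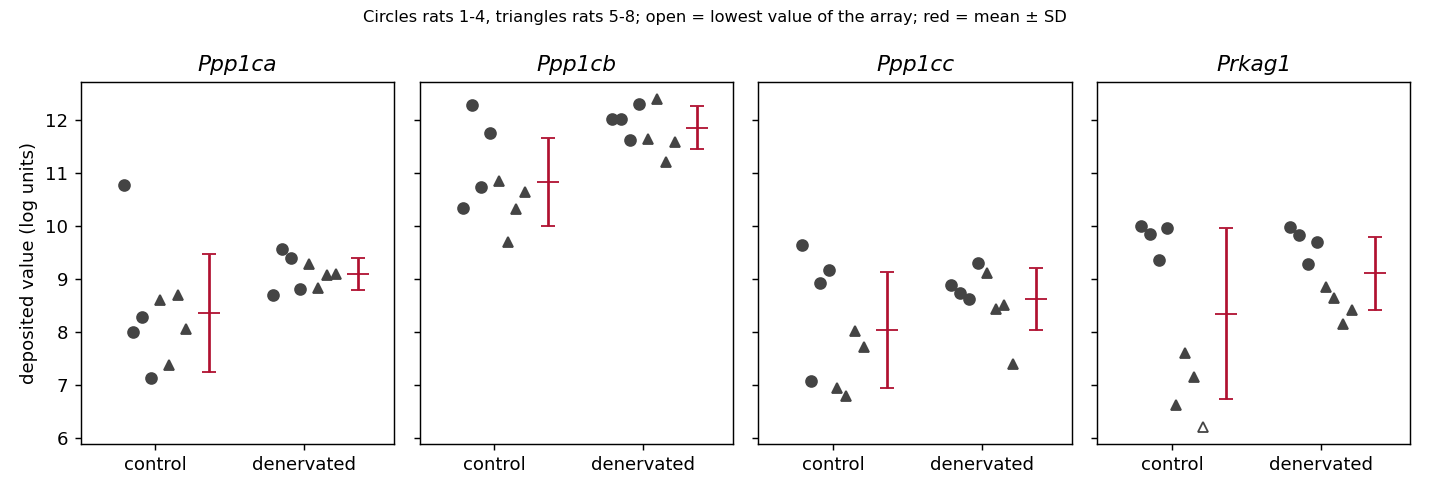
Deposited values in log units (vertical axis) of the 3 PP1 catalytic genes and of Prkag1 in control and denervated muscle; symbols as for the called genes, with the mean ± SD in red. For Ppp1ca the control of rat 1, and for Ppp1cb those of rats 2 and 4, reach the denervated values, the groups of Ppp1cc overlap widely, and the controls of Prkag1 split between rats 1 to 4 and rats 5 to 8.

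The 5 PP1 regulatory genes steer the enzyme to its targets or inhibit it, and none passed. Ppp1r1a (inhibitor-1), which blocks PP1 once protein kinase A has phosphorylated it, was 9.91 ± 0.95 in controls and 9.26 ± 1.04 in denervated muscle (SD, n = 8 each). Its difference was -0.65 (SE 0.41, adjusted p = 0.403), with -1.55 within rats 1 to 4 but 0.24 within rats 5 to 8 (unadjusted p = 0.0150 and adjusted p = 0.248 for the difference between sets). After centring the difference of Ppp1r1a was -0.86 (adjusted p = 0.222), and after quantile normalisation -1.17 (adjusted p = 0.0588). Denervated rats 3 and 4 lay below every control for this gene. Ppp1r9a (neurabin), which binds PP1 to actin, differed by -0.83 (SE 0.56, adjusted p = 0.438). Control rat 4 and denervated rats 3 and 4 were at the lowest value of their arrays for Ppp1r9a. Its relative Ppp1r9b (spinophilin) differed by 0.25 (adjusted p = 0.789). Ppp1r3b, which brings PP1 to glycogen, differed by -0.20 (adjusted p = 0.901), or 0.01 without denervated rat 2. Ppp1r10 (PNUTS), its nuclear anchor, differed by 0.31 (adjusted p = 0.857), or -0.19 without control rat 6. Control rat 3 was at the lowest value of its array for Ppp1r3b and Ppp1r10, and control rat 6 for Ppp1r10. The median of the 5 was -0.20, beside 0.66 for the 4 catalytic genes (those of PP1 together with Ppp5c) and 0.22 for all tested probes. Without control rat 6 these were -0.65, 0.50 and 0.031, and after quantile normalisation -0.25, 0.12 and -0.0059.

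Protein tyrosine phosphatases counter the tyrosine kinases, either inside the cell (Ptpn) or as receptors in its membrane (Ptpr). The 5 receptor genes all had positive differences, and none passed. They were Ptpro at 0.86 (SE 0.53, adjusted p = 0.397), Ptprj at 0.40 (adjusted p = 0.726), Ptprq at 0.29 (adjusted p = 0.836), Ptprh at 0.25 (adjusted p = 0.844) and Ptpre at 0.18 (adjusted p = 0.901). Signs turned after centring for Ptpre (-0.02), after quantile normalisation for Ptprh (-0.11) and Ptprq (-0.03), and without control rat 6 for Ptprq (-0.03). Ptpro ranged from 4.90 to 8.54 in controls and from 5.93 to 9.35 after denervation, and 3 denervated values lay above all controls. Control rat 1 and denervated rat 3 were at the lowest value of their arrays for Ptpro. So were denervated rat 3 for Ptprh and control rats 3 and 8 for Ptpre. Ptprj (DEP-1), found on blood and vessel cells, had a difference of -0.59 within rats 1 to 4 but 1.38 within rats 5 to 8 (unadjusted p = 0.0411 and adjusted p = 0.330 for the difference between sets).

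The intracellular genes Ptpn12 (PTP-PEST, which acts on adhesion proteins) and Ptpn18, of the same family, differed by 0.36 (SE 0.39, adjusted p = 0.688) and 0.35 (SE 0.45, adjusted p = 0.748). Ptpn12 varied less in denervated muscle, from 8.28 to 9.47, than in controls, from 7.14 to 9.37. Beside these phosphatases, 0 of 4 leukocyte markers passed in limma (2 at an unadjusted p under 0.05), and their mean level ranged from 7.68 to 9.94 in controls and from 9.34 to 10.07 in denervated muscle. Without control rat 6, the low array, the lowest control level was 8.38. Of 5 fibroblast and matrix markers 3 rose (2 after centring or quantile normalisation), and their mean level ranged from 7.96 to 10.46 in controls and from 10.72 to 11.61 after denervation. For these the lowest control level without control rat 6 was 9.19. None of the markers of either list was at the lowest value on all arrays, and the part of these cells in the result was not tested.

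**Figure D3:**
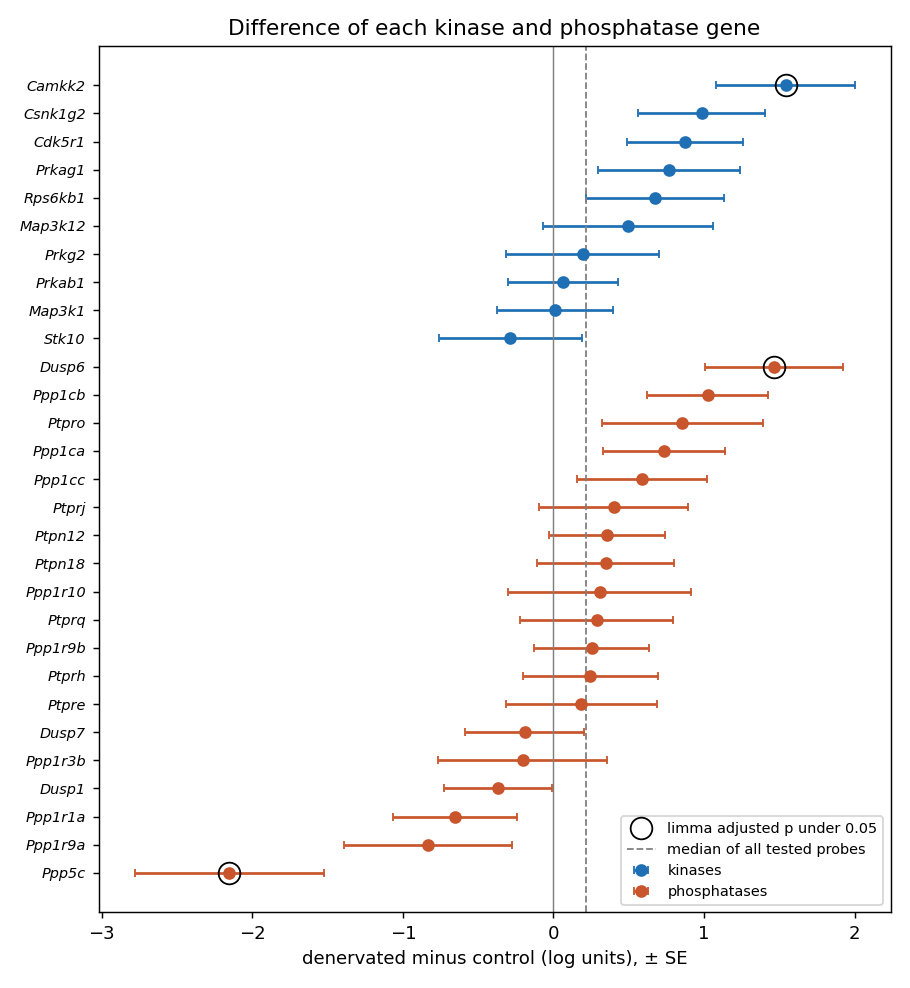
Difference of denervated minus control muscle in log units (horizontal axis) for the 10 kinase genes (blue) and 19 phosphatase genes (orange), with the standard error; black rings mark limma adjusted p under 0.05 and the dashed line the median of all tested probes, 0.22. Differences run from -0.29 to 1.54 among kinases and from -2.15 to 1.47 among phosphatases.

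Kinases and phosphatases were then set side by side. Of the 10 kinase genes 1 passed, which was higher, and of the 19 phosphatase genes 2 passed, 1 higher and 1 lower (10.5% of them), beside 6.29% of all probes. Differences were positive in 9 of 10 kinase genes, in 13 of 19 phosphatase genes and in 749 of 1176 probes (63.7%). The median difference was 0.58 for kinases, 0.29 for phosphatases and 0.22 for all probes, and the gap between the classes was 0.30, or 0.12 with a common lowest value. After centring 6 of 10 and 12 of 19 were positive, with medians of 0.38 and 0.08. After quantile normalisation 6 and 10 were positive, with medians of 0.41 and 0.02. Single control arrays moved these medians: leaving out control rat 6 gave a kinase median of 0.35 and a phosphatase median of 0.10, with all probes at 0.031, and leaving out control rat 5 gave a kinase median of 0.39. The gap between the classes was 0.54 when control rat 1 was left out, and 0.13, 0.18 and 0.17 when control rat 5, control rat 8 or denervated rat 4 was.

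On each array the median of the kinase genes was compared with that of the phosphatase genes. The kinase median was 8.06 ± 0.65 in controls and 8.66 ± 0.22 in denervated muscle, and the phosphatase median 8.13 ± 0.46 and 8.45 ± 0.36 (SD, n = 8 each). The kinase minus the phosphatase median was -0.06 ± 0.35 in controls, from -0.45 to 0.66, and 0.21 ± 0.51 in denervated muscle, from -0.33 to 1.19. The groups overlapped over most of their range, and the gap between group means was smaller than either SD. In rats 1 to 4 its mean was 0.10 in controls and 0.62 in denervated muscle, a difference of 0.52, and in rats 5 to 8 it was -0.23 and -0.19, a difference of 0.03. The medians of the genes' own differences ran the other way. In the fits of each set, the gap between the classes' median differences was -0.18 in rats 1 to 4, with kinases at -0.13 and phosphatases at 0.05, and 0.31 in rats 5 to 8, with kinases at 0.57 and phosphatases at 0.25.

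**Figure D4:**
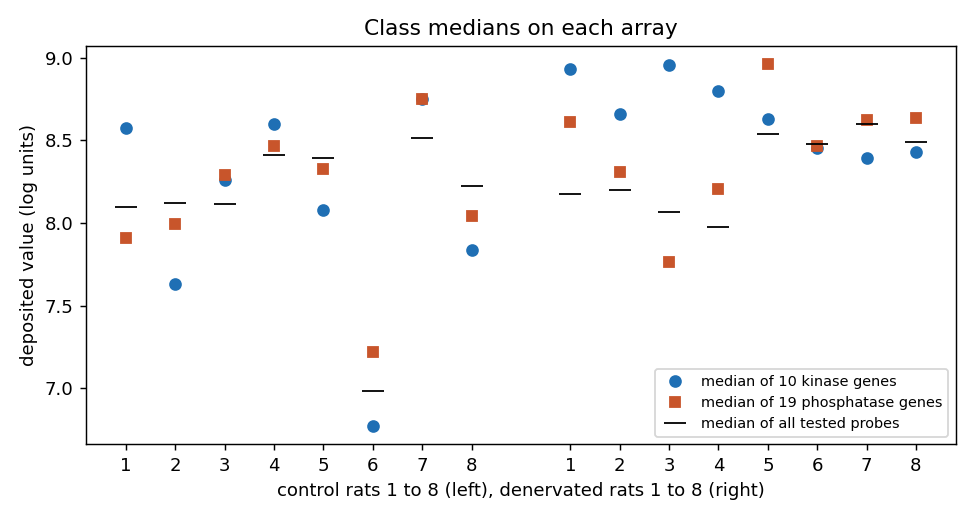
Median deposited value in log units (vertical axis) of the 10 kinase genes (circles), the 19 phosphatase genes (squares) and all tested probes (dashes) on each array, control rats on the left and denervated rats on the right. Control rat 6 is the lowest array in all 3, and kinases exceed phosphatases in denervated rats 1 to 4 but not in 5 to 8.

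The spread between rats was large beside these differences. Leaving out 1 array moved the difference by over 1.5 times in 21 of the 26 genes that did not pass, and leaving out control rat 6 did so in 16. The median SD of a member was 1.07 log units in controls and 0.69 in denervated muscle, against 0.99 and 0.77 over all probes. Of the 29 genes 17 were above the lowest value on all 16 arrays (58.6%, against 53.9% of all probes), and 5.17% of the members' values were at the lowest value, against 8.65% overall. Control values of rats 1 to 4 and of rats 5 to 8 did not overlap in 2 of 29 genes, Prkag1 and Dusp6, beside 159 of 1176 probes (13.5%). Differences had opposite signs in the 2 sets of rats in 13 of 29 genes, a count not made over all probes. They were positive in 14 of the 29 genes in rats 1 to 4 and in 23 in rats 5 to 8. Over all 1176 probes they were positive in 570 and 850, so the shift between sets was not particular to these genes. The test of the difference between sets passed for no member and no probe (0 of 29 and 0 of 1176 in limma with adjustment, 6 and 159 at an unadjusted p under 0.05). The 6 were Dusp6, Ppp5c, Prkag1, Ppp1r1a, Ptprj and Rps6kb1. The labels do not say what sets rats 1 to 4 apart from rats 5 to 8.

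**Figure D5:**
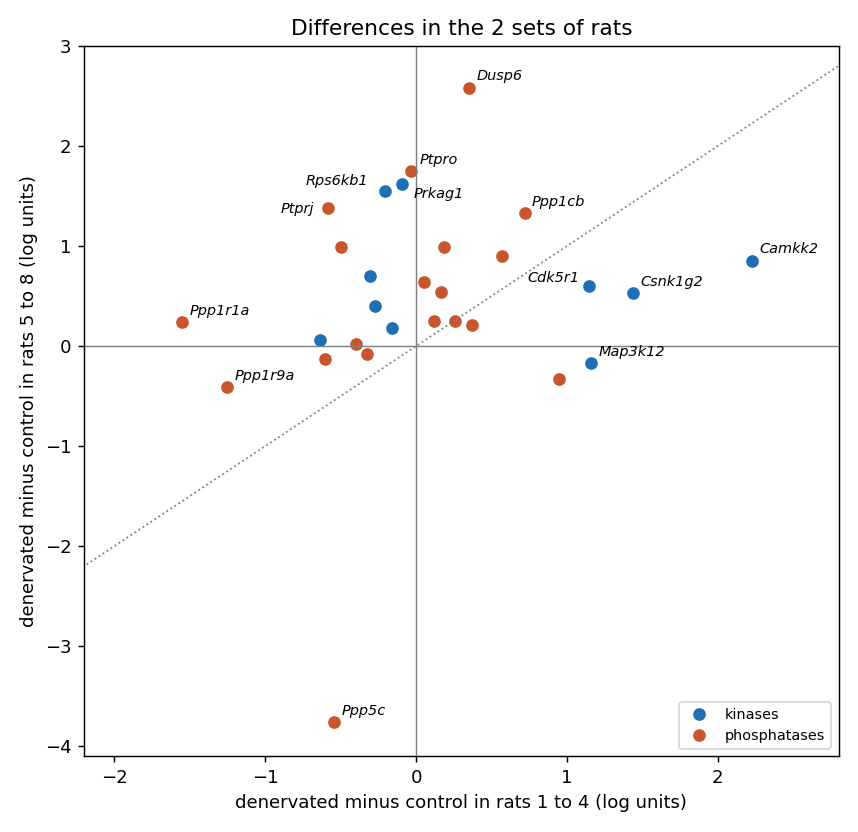
Difference of denervated minus control muscle in rats 1 to 4 (horizontal axis) against that in rats 5 to 8 (vertical axis), in log units, for kinase genes (blue) and phosphatase genes (orange); the dotted line marks equal differences. Camkk2 lies at 2.23 and 0.85, Dusp6 at 0.35 and 2.58, and Ppp5c at -0.54 and -3.76.

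Partner genes, listed as other kinases, other phosphatases and signalling genes outside the symbol rule, were few on the membrane. Of 32 measured 2 passed (6.25%, against 6.29% of all probes), 1 higher and 1 lower. The lower was Mylk2. Mylk2, the kinase of skeletal myosin light chain, the substrate that PP1 dephosphorylates, read 10.61 ± 0.98 in controls and 8.74 ± 0.32 in denervated muscle (SD, n = 8 each), and fell by 1.87 (adjusted p = 4.18e-04). Within rats 1 to 4 Mylk2 stood at -2.67 (adjusted p = 1.39e-04), and within rats 5 to 8 at -1.07 (adjusted p = 0.0840). After centring the second partner gene that passed beside Mylk2 was Pde1c, a phosphodiesterase, at -1.20 before centring (adjusted p = 0.152, and 0.0474 centred).

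By group, 1 of 9 other serine/threonine kinases rose and 1, Mylk2, fell. Mylk2 was also 1 of the 2 measured genes of calcium and calmodulin signalling, where the other, the transcription factor Mef2d, differed by 0.24 (adjusted p = 0.850). None passed in limma of 2 other tyrosine kinases, 4 other phosphatases of any substrate, 5 genes of cyclic AMP signalling, 7 of insulin and mTOR signalling or 4 of cytokine signalling. In that order 1, 2, 1, 1 and 0 had an unadjusted p under 0.05, and 1, 0, 0, 0 and 0 passed by exact permutation with adjustment. Among them Fgfr2, a growth factor receptor, differed by 1.09 (adjusted p = 0.124), Pdpk1, the kinase that activates Akt and S6 kinase, by 0.83 (adjusted p = 0.310) and Tsc2, a brake on mTOR, by 0.23 (adjusted p = 0.828). No cyclin or CDK inhibitor and no Ras or Raf gene of the lists was matched.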

How the data were processed

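Per the labels, Clontech Rat Atlas 1.2 Array II membranes were imaged by phosphorimager and quantified in Array Vision, with linear regression as the normalisation. Each deposited value on the 16 arrays is treated as a score whose scale looks logarithmic. Its base, and any background correction, are not stated in the labels. Of 1185 probes, 9 reference probes were left out; 1176 were used as deposited, and all values exceeded 0.

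The group difference was fitted in limma 3.58.1 under R 4.3.3 (lmFit, eBayes with trend, two-sided, Benjamini-Hochberg over all probes, adjusted p under 0.05). Rats 1 to 4 and 5 to 8 were also fitted apart, and their difference as an interaction. Exact two-sided permutation used all 12870 splits (smallest p 0.000155). The procedure was tested on simulated data. Members and lists were chosen with earlier results of these data known. Values were named for members past the threshold, the 5 largest differences of each class, textbook members and the difference nearest 0; the remaining members were named after their values were seen. Partner genes were named where they passed, except 1 that is not reported here, and Mef2d, Pde1c, Fgfr2, Pdpk1 and Tsc2 after their values were seen. The platform's annotation, which can be old, paired 1106 probes with 1 gene; all 29 member IDs were found in the RefSeq GRCr8 table. Rat numbers were not taken as pairs, because the labels do not say that a number marks the same rat. Deviations of same-numbered arrays correlated at 0.06 to 0.19, over 0.1 for 7 of 8. Of the 8 control arrays, 2 correlated best with the denervated array of their own number. These values do not decide whether the arrays are paired. Alternatives were other scalings, floors, blocks, weights, tests and leaving out each array.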

Additional observations from a re-analysis of the deposited data

Results flagged for a closer look

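In 7 of 58 sets of 8 values (29 genes in each group) the gap between an extreme array and its nearest neighbour exceeded the 95% limit of Dixon's ratio, which chance passes in about 1 in 20 sets. Control rat 6, the array with the low mean, was lowest for Ppp1r10 at 3.27 (next 6.20), for Csnk1g2 at 5.85 (next 7.64) and for Ppp1r3b at 4.29 (next 6.69). The 3.27 of Ppp1r10 and the 6.69 of Ppp1r3b (control rat 3) were each the lowest value of their array. They are upper bounds, so the sizes of these gaps are not known. Control rat 1 was highest for Ppp1ca at 10.77 (next 8.69). In denervated muscle rat 8 was lowest for Ppp1cc at 7.39 (next 8.43), rat 2 for Ptprj at 5.76 (next 7.21) and rat 1 for Prkg2 at 5.49 (next 7.24).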

How the results depend on the processing

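Direction held for Camkk2, Dusp6 and Ppp5c under every alternative run, but their calls did not, being lost in 13, 17 and 8 of the 30 alternatives. The number of changed members, 3 at first, was 1 after centring, 0 after quantile normalisation, 0 with a common floor, 1 by exact permutation and 1 within rats 1 to 4. With the rat number as a replicate block it was 3 (113 probes), and 5 with each array centred as well (141 probes, 4 partner genes), where Camkk2, Dusp6 and Ppp5c passed and Ppp1cb and Ppp1r1a joined. With the 2 sets of rats as a block 4 members (Ppp1cb joined), 131 probes and 4 partner genes passed, and 3, 117 and 4 with centring, an alternative added after the data were seen. Within rats 1 to 4, 30 probes and 1 partner gene passed, the kinase median was -0.13 and the class gap -0.18; within rats 5 to 8, 139 probes and 1 partner gene passed. With the reference probes included 1 partner gene passed. Leaving out 1 array gave 0 to 3 members (0 without control rat 5), 43 to 98 probes (under 50 without control rat 5, 7 or 8 or denervated rat 1 or 6), 1 to 3 partner genes, a kinase median of 0.35 to 0.76, a phosphatase median of 0.10 to 0.43 and a class gap of 0.13 to 0.54.

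Signs of members that were not called turned as follows. Centring, alone, with the replicate block or with the sets as a block, gave Prkab1 -0.14, Ptpre -0.023, Map3k1 -0.20 and Prkg2 -0.014. Quantile normalisation gave Ppp1cb -0.038, Prkab1 -0.25, Ptprh -0.11, Map3k1 -0.32, Prkg2 -0.10 and Ptprq -0.025. Within rats 1 to 4 Rps6kb1 stood at -0.21, Prkab1 at -0.27, Ptprh at -0.50, Ptpro at -0.036, Ptprj at -0.59, Prkag1 at -0.091, Map3k1 at -0.16 and Prkg2 at -0.31. Within rats 5 to 8 Ppp1r10 stood at -0.33, Stk10 at 0.064, Map3k12 at -0.17, Ppp1r1a at 0.24 and Dusp7 at 0.017. Array weights gave Ppp1r10 -0.080, Prkab1 -0.029 and Map3k1 -0.057. Without 1 array Ppp1r10 ranged from -0.19 to 0.61, Prkab1 from -0.16 to 0.21, Map3k1 from -0.16 to 0.12, Prkg2 from -0.046 to 0.46, Ptprq from -0.031 to 0.52 and Ppp1r3b from -0.65 to 0.011. The causes were not tested. Values at an array's lowest value limit what can be said of Ppp5c.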
